A study of Mus musculus with 16 samples.

Results

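T cells from lymph nodes of OT-I mice kept on a high-fat diet were compared with T cells from lymph nodes of lean OT-I mice. The comparison takes the 8 lymph node (LN) libraries of a series of 16, with 4 libraries on high-fat diet (HFD) and 4 lean ones. HFD animals received a diet with 60% of its energy as fat, lean animals received standard chow, and both diets lasted 8 weeks. The other 8 libraries are T cells from visceral adipose tissue (VAT) of the same kinds of animals, and enter here only through the shared estimate of spread and 1 comparison at the end.

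All groups carry the OT-I transgene, a rearranged receptor for an ovalbumin peptide shown by MHC class I, so nearly all of their T cells are expected to be CD8 T cells of a single specificity that meet no antigen in the mouse. The labels give no strain background, sex or age. They call the cells freshly isolated, while the series text states an overnight culture before sorting, so the RNA may reflect cells some hours out of the animal. About 10000 cells were lysed per sample, and the libraries are labelled as biological replicates. Whether cells of several mice were pooled is not stated. The second header line of the table adds "Neg-OVA" to every column name, a term the labels do not explain. Because these are bulk samples, fewer cells of a type and less RNA per cell cannot be told apart.

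Naive CD8 T cells circulate between blood and lymph nodes, which they enter with help of the chemokine receptor CCR7 and leave through the sphingosine-1-phosphate receptor. They are held in a resting state by factors such as TCF-1, LEF-1, KLF2 and FOXO1, live on interleukin 7, and draw mostly on oxidative metabolism until the receptor is engaged. Obesity is known to place T cells of fat tissue among inflammatory signals and abundant lipid, and to change leptin, insulin and glucocorticoid levels throughout the body.

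Library totals ran from 42444506 to 65957407 counts, and 3 counts in a library were 0.0437 to 0.0661 CPM, the count scaled to a normalised library of 1000000. HFD libraries held 18895 ± 538 genes with a count (SD, n = 4) and lean ones 19492 ± 510 (exact two-sided permutation p = 0.143, adjusted p = 0.40 over 4 library measures, the smallest possible p being 0.0286). Among genes whose median over the remaining 3 libraries of a diet reached 10 CPM, the share at 3 counts or fewer in the library left over ran from 1.30% in lean replicate 3 to 4.95% in lean replicate 2. No library of either diet repeated another: all 12 replicate pairs differed by far more than counting noise.

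CD8 T cell markers were present in both diets, as labelled, but so were B cell genes, which a sort for pure T cells should remove; their levels are given with the markers of other cell types. Cd8b1, which encodes the CD8 beta chain, was at 2001, 2262, 2059 and 1965 CPM in the HFD libraries and 2026, 2200, 2039 and 1967 CPM in the lean ones. These ranges overlapped almost wholly. Trbv12-1, a segment of the beta chain family that the OT-I receptor uses and named here after its values were seen, was at 2511 ± 100.02 CPM on HFD and 2271 ± 81.6 CPM in lean samples. Its HFD libraries all lay above its lean ones, at a log2 difference of 0.14 (limma 95% interval 0.02 to 0.26, edgeR adjusted p = 1). Cd4, the coreceptor of helper T cells, reached 0.044 CPM at most on HFD and 0.0193 CPM at most in 3 lean libraries, with 4.76 CPM in lean replicate 2. Foxp3, the defining factor of regulatory T cells, had no count in any of the 8 libraries.

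No gene passed the test between HFD and lean LN T cells. Of 15675 genes tested with edgeR's quasi-likelihood test over the 16 libraries, 0 had an adjusted p under 0.05 (0% in either direction), and 529 had an unadjusted p under 0.05 (3.37%), 217 of them higher on HFD (1.38%) and 312 lower (1.99%). Libraries of the diets did not overlap for 355 genes (2.26%), 168 of them higher on HFD (1.07%) and 187 lower (1.19%). The smallest adjusted p was 0.113, for Plin2 and Trgc4. Among the 4415 well-measured genes, those with a mean of at least 50 CPM over the 8 libraries, 0 passed and 62 had an unadjusted p under 0.05 (1.4%), 27 of them higher (0.612%) and 35 lower (0.793%). With limma-trend on the 8 LN libraries, 180 of these genes had an unadjusted p under 0.05 (4.08%). The edgeR fit was thus the stricter of the 2 for well-measured genes. Its common dispersion was 1.52 over 16 libraries, and 0.94 with the 8 LN libraries alone. Of the other tools, DESeq2 called 236 genes with 16 libraries (1.51%), 97 higher (0.619%) and 139 lower (0.887%), and 64 with the 8 LN libraries alone, limma voom called 3, and limma-trend on the 8 LN libraries called 9 of 13748 (0.0655%), 4 higher (0.0291%) and 5 lower (0.0364%). The 236 were mostly genes of low level: 232 had a mean under 50 CPM, 211 had 3 counts or fewer in at least 1 LN library, and 179 had 3 counts or fewer in a whole diet group. Of the 64, 16 were well measured (5 higher on HFD and 11 lower), 50 had libraries without overlap between the diets and 12 had 3 counts or fewer in a whole diet group. The 9 genes of limma-trend and the 3 of limma voom were all under 50 CPM. Of these, 8 and 3 had 3 counts or fewer in a whole diet group. Refitted on the well-measured genes alone, edgeR, DESeq2 and limma-trend with the 8 LN libraries each called 0.

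How much difference the libraries could exclude depended on a gene's level. A gene is described below as bounded within 2-fold where the 95% interval of its log2 difference, from limma-trend on the 8 LN libraries, lies between -1 and 1. These intervals are per gene and are not adjusted over genes. Of the 4415 well-measured genes, 2083 were bounded within 2-fold (47.2%) and 586 within 1.5-fold (13.3%). The share rose with level, from 24.4% of the 2064 genes at 50 to 100 CPM, through 53.05% of 1395 at 100 to 200 CPM and 83.8% of 705 at 200 to 500 CPM, to 98.8% of the 251 genes at 500 CPM or more. The median distance from the estimate to the end of its interval narrowed from 1.94-fold in the lowest of these classes to 1.27-fold in the highest. Point estimates were small throughout: 98.1% lay under 2-fold, and 90% of them between -0.61 and 0.58 on the log2 scale. The interval left out 0 for 180 well-measured genes (4.08%). Counts of bounded genes in a list therefore follow the levels of its members and do not rank the lists.

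**Figure D1:**
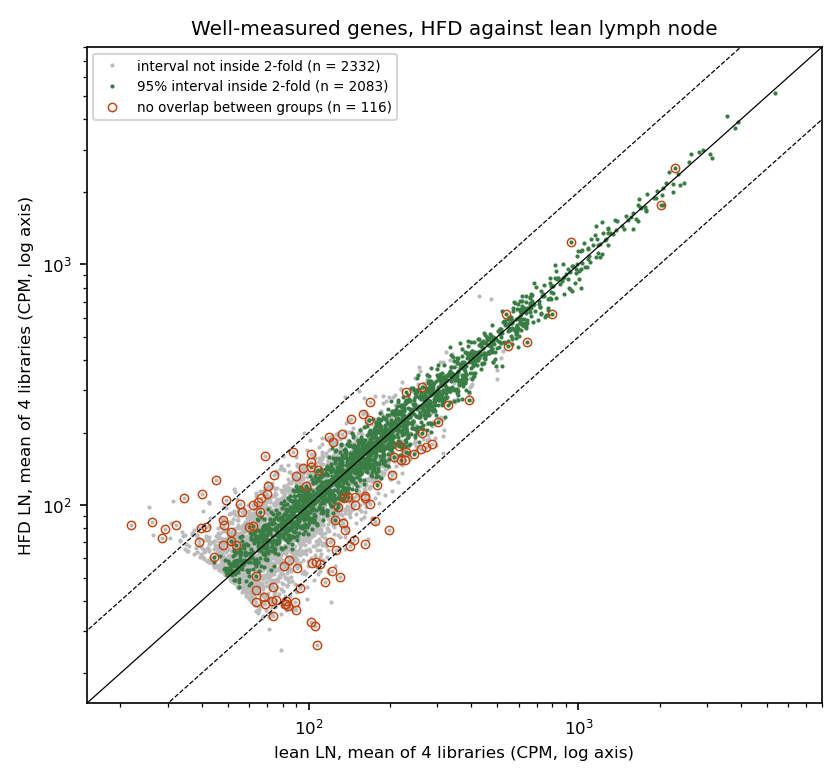
Mean CPM in HFD LN (y, log axis) against lean LN (x, log axis) for the 4415 well-measured genes, with the line of equality and dashed lines at 2-fold. The 2083 genes bounded within 2-fold (green) take up nearly all of the upper range, and the 116 genes whose libraries did not overlap between the diets (circles) are found at all levels: 59 of 2064 at 50 to 100 CPM, 39 of 1395 at 100 to 200, 11 of 705 at 200 to 500 and 7 of 251 above.

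No gene of the receptor complex or its proximal signalling chain passed the test. All 22 genes of this list were well measured, 19 were bounded within 2-fold, and no gene had groups without overlap. The summed level of the list was 20645 ± 791 CPM on HFD and 20353 ± 630 CPM in lean samples. Cd3e, a signalling subunit of the receptor, was at 385 ± 25.5 and 364 ± 42.6 CPM (interval -0.20 to 0.36). Lat, the adaptor phosphorylated after receptor engagement, was at 661 and 665 CPM (interval -0.23 to 0.19), and Vav1, an exchange factor that acts on the cytoskeleton, at 373 CPM in both. Lck, the kinase that starts the cascade, was at 1809, 1782, 1487 and 1987 CPM on HFD and 2087, 2086, 2118 and 1958 CPM in lean libraries. HFD replicates 1, 2 and 3 lay under every lean library and HFD replicate 4 did not, with an interval of -0.44 to -0.03. Cd6, a surface receptor that tunes signalling, had an interval of -0.82 to -0.12 around 379 and 520 CPM.

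Most well-measured genes of naive and central memory T cells were bounded within 2-fold. The list had 22 tested members and 19 well-measured ones, of which 16 were bounded within 2-fold and 0 passed the test. Tcf7, which encodes TCF-1, was at 2218, 2062, 2209 and 2185 CPM on HFD and 2300, 1931, 1957 and 2281 CPM in lean libraries (interval -0.16 to 0.22). All HFD libraries lay within the lean range. S1pr1, the exit receptor, was at 1050 ± 143 and 1088 ± 148 CPM, and Klf2, which drives its transcription, at 954 ± 160 and 914 ± 128 CPM. Lef1 was at 618 ± 177 and 768 ± 84.7 CPM (interval -0.82 to 0.11). Foxo1 was at 205 ± 54.7 and 252 ± 66.8 CPM (interval -0.95 to 0.33). Of the 19 well-measured members 9 had fitted values higher on HFD and 10 lower. Ccr7 was at 790, 916, 800 and 698 CPM on HFD and 1087, 972, 790 and 832 CPM in lean libraries, with an interval of -0.50 to 0.10. Il7r, the interleukin 7 receptor, was at 1511 ± 189 and 1386 ± 299 CPM. Klf3, a related repressor, had HFD libraries from 574 to 676 CPM and lean ones from 474 to 572 CPM, which did not overlap (2.63% of well-measured genes and 2.26% of all tested genes had groups without overlap). Its interval was -0.04 to 0.43. Igfbp4, a binding protein of insulin-like growth factors that naive T cells express, is described with the genes of low level.

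**Figure D2:**
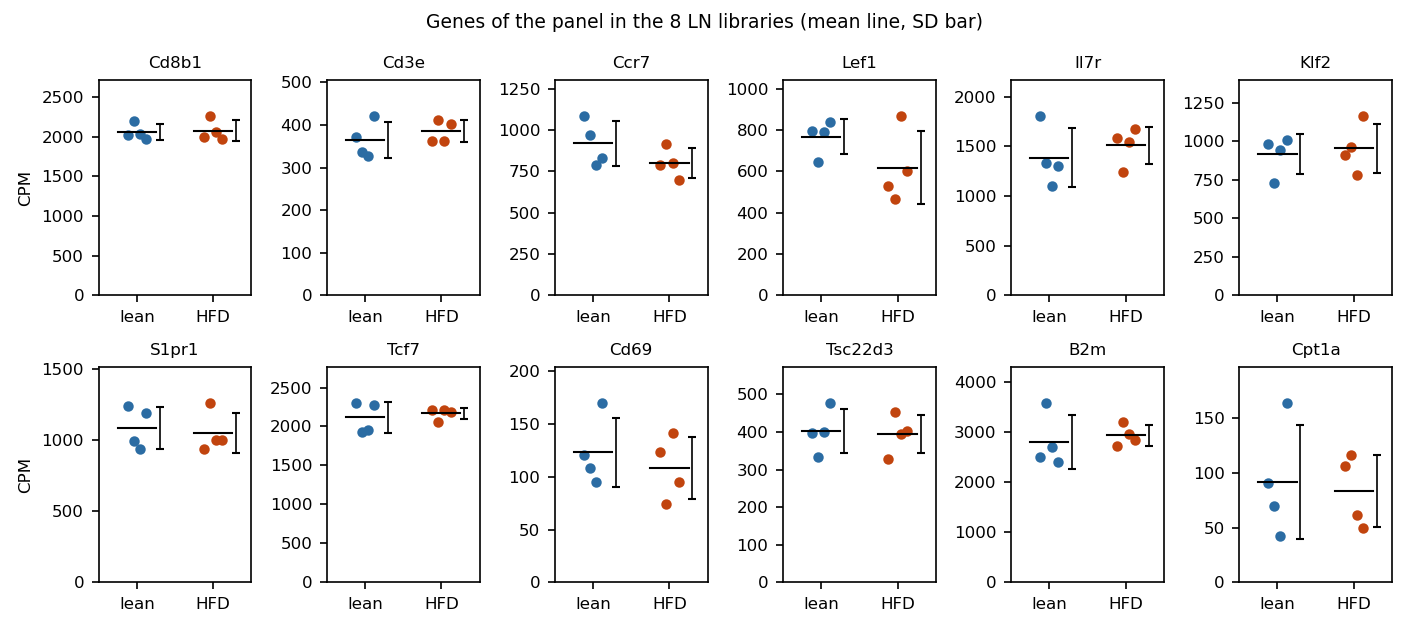
CPM of 12 genes in each lean (blue) and HFD (orange) LN library, on linear axes from 0, with a line at the mean of 4 libraries and a bar of 1 SD. The 2 diets overlap in every panel, from Cd8b1 at 1965 to 2262 CPM to Cpt1a, whose libraries ran from 42.4 to 164 CPM.

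Effector genes were mostly low, and the measured ones did not pass the test. Gzmb, a cytotoxic protease, had 3 counts in all 4 HFD libraries together and 6.73 CPM in lean replicate 3 alone, a difference that DESeq2 on 16 libraries called (adjusted p = 0.0356) and edgeR did not (adjusted p = 1). Ifng reached at most 5.9 CPM on HFD and 6.87 CPM in lean libraries, and Tnf had 9.04 CPM in 1 HFD library, 9.02 CPM in 1 lean library and at most 0.022 CPM in the rest. Of 24 effector members tested, 8 were well measured, and 6 of these were bounded within 2-fold. Members with an unadjusted edgeR p under 0.05 were 3 higher on HFD (Ccl5, Klrc1, Srgn) and 3 lower (Gzmb, Klrg1, Zeb2). Over all genes tested, 1.38% were higher and 1.99% lower at this p. The 3 lower ones and Klrc1 were under 50 CPM, and Klrc1 is described with the genes of low level. Srgn was at 455 ± 97.0 and 333 ± 66.2 CPM (interval -0.02 to 0.90). Ccl5, a chemokine of memory and effector CD8 T cells, was at 516, 641, 919 and 889 CPM on HFD and 423, 558, 415 and 316 CPM in lean libraries. HFD replicate 1 lay under lean replicate 2, and the other 3 HFD libraries lay above every lean one. The log2 difference was 0.79 (interval 0.24 to 1.31) with an unadjusted edgeR p of 0.00679 and an adjusted p of 1. Nkg7, a granule protein, was at 393 and 371 CPM (interval -0.35 to 0.52). Ctsw, a protease of cytotoxic cells, was at 1397 ± 280 and 1472 ± 176 CPM.

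Recent receptor engagement leaves a set of early genes, none of which passed the test. Of 28 tested, 15 were well measured and 11 were bounded within 2-fold; Egr1, Dusp1, Nfkbid and Myc were not, and the other 13 were under 50 CPM. Cd69, an early activation marker, was at 108 ± 29.5 CPM on HFD and 123 ± 32.8 CPM in lean samples (interval -0.84 to 0.44). Ier2 was at 335 and 369 CPM, with an interval of -0.39 to 0.09. Dusp1, a phosphatase that ends MAP kinase signalling, had the smallest p of the well-measured members: 53.2 ± 15.9 and 86.1 ± 25.3 CPM, with overlapping libraries and an interval of -1.48 to 0.05.

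For checkpoint genes, interferon-stimulated genes and cytokine ligands the libraries set looser bounds. Pdcd1, which encodes PD-1, had 0 counts in 3 HFD libraries and 1.19 CPM in the other, against 11.9, 0, 41.6 and 0 CPM in lean libraries, so the groups overlapped at 0. Of 16 checkpoint genes tested 4 had an unadjusted p under 0.05, all with lower values on HFD (1.99% of all genes tested) and all under 50 CPM: Pdcd1, Tigit, Cd244a and Tnfrsf4. Tigit, an inhibitory receptor, had the smallest p of these (0.000133, edgeR adjusted p = 0.697), at 0, 0, 0.044 and 0 CPM on HFD and 5.68, 10.5, 5.2 and 0.0187 CPM in lean libraries, where replicate 4 lay in the HFD range. The 4 well-measured checkpoint genes went the other way, all with fitted values higher on HFD and a median log2 difference of 0.34 (0.07 to 0.70). Of all well-measured genes 50.8% had fitted values above 0. No checkpoint gene was higher at an unadjusted edgeR p under 0.05. Of the 4 well-measured ones 2 were bounded within 2-fold, among them Vsir, a ligand and receptor that restrains T cells, at 538 ± 107 and 511 ± 93.7 CPM. The interferon list had 15 well-measured genes, of which 4 were bounded. Of its 38 tested genes, 1 higher on HFD (Oas2) and 3 lower (Usp18, Mx2, Ifit3b) had an unadjusted edgeR p under 0.05. All were under 50 CPM, and 1 library held 989 of the 991 counts of Oas2. Over all genes tested, 1.38% were higher and 1.99% lower at this p. Usp18 was at 19.9 ± 13.9 and 51.0 ± 27.8 CPM (interval -3.05 to -0.06). Irf1 was at 305 ± 104 and 348 ± 41 CPM, while Ifi27l2a ran from 34.8 to 100 CPM on HFD and 61.3 to 303 CPM in lean libraries. Among 4 well-measured ligands, Ltb, which encodes lymphotoxin beta, was at 1333 ± 167 and 1347 ± 165 CPM (interval -0.29 to 0.25). Il17a had no count in any LN library, and the single well-measured gene of the type 17 list, the signal transducer Stat3, was at 238 ± 33.0 and 246 ± 54.5 CPM.

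Receptors for migration included several of the genes without overlap. Of 14 well-measured chemokine receptors and integrins 11 were bounded within 2-fold, 0 passed the test, and 3 had groups without overlap, beside 2.63% of all well-measured genes: Cxcr3 and Itgb7 higher on HFD, and Cxcr6 lower. Cxcr3, the receptor for interferon-induced chemokines, was at 154, 225, 154 and 237 CPM on HFD and 112, 134, 124 and 104 CPM in lean libraries. Its log2 difference was 0.70 (interval 0.22 to 1.12; edgeR adjusted p = 1, and 0.0494 with DESeq2 on 16 libraries). Itgb7, a subunit of gut-homing integrins, was at 1065, 1241, 1145 and 1488 CPM against 1022, 859, 910 and 976 CPM, with an interval of 0.10 to 0.65. Cxcr6, a receptor linked to tissue residence, was at 145 to 233 CPM on HFD and 239 to 299 CPM in lean libraries (interval -0.84 to 0.00). Selplg, the ligand of P-selectin, was at 2414 and 2160 CPM, with an interval of -0.05 to 0.37.

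The cytokine receptor list, with the common gamma chain and receptors for inflammatory cytokines, had 18 well-measured members and 10 bounded ones. Of its 26 tested members, 1 higher on HFD and 1 lower had an unadjusted edgeR p under 0.05. Over all genes tested, 1.38% were higher and 1.99% lower at this p. The smallest edgeR adjusted p of the list was 0.827. Jak1, the kinase shared by many of these receptors, was at 2990 ± 437 and 2894 ± 375 CPM. Il2rg, the common gamma chain, was at 474 and 483 CPM (interval -0.27 to 0.20). Il2rb, the beta chain for interleukins 2 and 15, was at 307 ± 55.7 and 240 ± 56.2 CPM, and Ifngr1, the interferon gamma receptor, at 839 and 687 CPM (interval -0.01 to 0.58).

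In lipid metabolism no member passed the test, and few members were bounded within 2-fold. Of 31 tested genes of fatty acid uptake and oxidation, 15 were well measured, 4 were bounded within 2-fold, and 0 had an unadjusted p under 0.05. Of the 15, 13 had fitted values lower on HFD, with a median log2 difference of -0.26, beside a median of 0.01 over all well-measured genes, of which 50.8% had fitted values above 0 (50.1% of all tested genes). The summed level of the list was 2349, 1964, 2324 and 2154 CPM on HFD and 2211, 2617, 2605 and 2319 CPM in lean libraries, so the groups overlapped. Acadm, the medium-chain acyl-CoA dehydrogenase of mitochondrial oxidation, was at 161, 81.1, 182 and 158 CPM on HFD and 212, 252, 216 and 164 CPM in lean libraries (interval -1.23 to 0.05). Cpt1a, which brings fatty acids into mitochondria, was at 83.5 ± 32.8 and 91.7 ± 51.9 CPM. Its interval of -1.16 to 1.04 leaves differences above 2-fold in either direction possible.

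Storage and sterol genes gave no call either. The droplet coat gene Plin2, under 50 CPM, came nearest (edgeR adjusted p = 0.113, without overlap) and is described with the genes of low level. Of 9 well-measured genes of lipid droplets and triglycerides 3 were bounded within 2-fold, among them Pnpla2, the lipase that opens stored triglyceride, at 181 and 176 CPM (interval -0.55 to 0.58). Dgat1, which makes triglyceride, was at 65.6 ± 32.1 and 70.7 ± 41.9 CPM. Of 6 well-measured genes of cholesterol synthesis, uptake and efflux 3 were bounded, among them Npc2, a lysosomal cholesterol carrier, at 320 ± 103 and 378 ± 55.7 CPM.

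No gene of glycolysis or oxidative phosphorylation passed the test. Glycolysis had 12 well-measured members and 7 bounded ones. Eno1 was at 747 ± 74.5 and 671 ± 99.5 CPM, Ldha at 626 and 642 CPM, and Gapdh at 220 ± 39.4 and 276 ± 76.9 CPM. Slc2a3, a glucose transporter, had an interval of -1.96 to -0.08 around 43.9 and 80.0 CPM, with libraries that overlapped. Of 23 tested members 1 had groups without overlap, beside 2.26% of all genes tested. It was Slc16a1, under 50 CPM, at 29.1 to 107 CPM on HFD and 0 to 26.7 CPM in lean libraries. Of 50 well-measured nuclear genes of oxidative phosphorylation 42 were bounded within 2-fold. Their summed level was 9292 ± 521 and 9288 ± 1106 CPM. Atp5b, a catalytic subunit of the ATP synthase, was at 980 ± 98.7 and 1073 ± 82.6 CPM. Of the 50, 1 had groups without overlap, beside 2.63% of all well-measured genes. It was Cox5a, at 44.2 to 57.6 CPM on HFD and 58.2 to 68.0 CPM in lean libraries (interval -0.78 to 0.11). All 8 well-measured mitochondrially encoded genes were bounded, among them mt-Co1 at 488 ± 10.4 and 425 ± 81 CPM.

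Genes that respond to the hormones that obesity changes did not pass the test. Lepr, the leptin receptor, had no count on HFD and at most 0.0187 CPM in lean libraries, at or under the level of 3 counts, so no difference in it was detectable at this depth. Insr, the insulin receptor, ran from 9.25 to 79.3 CPM on HFD and 10.6 to 79.1 CPM in lean libraries. In the insulin, leptin and mTOR list 17 genes were well measured and 9 bounded, among them Txnip, a glucose-responsive gene that FOXO factors also drive, at 1081 ± 69.8 and 986 ± 139 CPM (interval -0.14 to 0.41). Irs2, the insulin receptor substrate, was at 67.8 ± 28.9 and 103 ± 45.7 CPM. Nr3c1, the glucocorticoid receptor, was at 155, 116, 63.4 and 229 CPM on HFD and 75.5, 101, 81.6 and 63.1 CPM in lean libraries. HFD replicate 3 lay within the lean range and the other 3 HFD libraries above it, with a log2 difference of 0.81 (interval -0.22 to 1.57, edgeR adjusted p = 1). Its target Tsc22d3, which encodes GILZ, was at 395 ± 51.7 and 402 ± 58.3 CPM (interval -0.38 to 0.32). Of the 6 well-measured genes of the glucocorticoid list 3 were bounded within 2-fold. The 3 well-measured clock genes were not: Cry1, a repressor of the clock, was at 53.2 ± 19.8 and 110 ± 48.7 CPM (interval -1.998 to -0.01), and Nr1d2 at 109 ± 23.2 and 92.6 ± 45.8 CPM.

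Genes of protein synthesis and turnover were largely bounded, and none passed the test. Of 56 well-measured cytosolic ribosomal protein genes 55 were bounded within 2-fold. Fitted values of 48 of them were higher on HFD, with a median log2 difference of 0.08, and the list's sums overlapped widely, at 25503 to 35251 CPM on HFD and 24527 to 39380 CPM in lean libraries. Rpl13 was at 2013 ± 375 and 1953 ± 550 CPM. The proteasome list had 33 well-measured members and 25 bounded ones. Psmd4, a ubiquitin receptor of the proteasome, had the smallest p among them, at 324 ± 78.5 and 221 ± 47 CPM (interval 0.01 to 1.06). Psme1, an activator subunit, was at 438 ± 61.8 and 468 ± 19.4 CPM.

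Stress and survival programs also gave no call. For the unfolded protein response 9 of 15 well-measured genes were bounded within 2-fold and 13 of the 15 had fitted values lower on HFD, at a median of -0.10, with summed levels of 2757 to 2976 CPM on HFD and 2778 to 3394 CPM in lean libraries. Pdia3, a disulphide isomerase of the endoplasmic reticulum, was at 593 ± 82.9 and 626 ± 129 CPM. Edem1, which helps clear misfolded glycoproteins, was at 183 ± 24.8 and 255 ± 64.3 CPM (interval -0.94 to 0.03). Of 10 well-measured heat shock genes 6 were bounded, among them the chaperone Hspa8 at 605 ± 106 and 554 ± 43.8 CPM. Among 17 antioxidant genes 11 were bounded, and Prdx6, a peroxiredoxin, was at 448 ± 70.4 and 442 ± 104 CPM. Txn2, the mitochondrial thioredoxin, was at 112, 142, 141 and 138 CPM on HFD and 151, 328, 170 and 163 CPM in lean libraries, without overlap, where lean replicate 2 stood apart. Of 9 apoptosis and p53 genes 6 were bounded, among them the survival factor Mcl1 at 530 ± 64.6 and 504 ± 76.9 CPM. Bcl2l11, which encodes the death factor BIM, was at 69.8 ± 15 and 43.1 ± 11.6 CPM (interval 0.06 to 1.35).

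Autophagy, antigen presentation and the cell cycle complete the lists. Of 17 well-measured autophagy and lysosome genes 12 were bounded within 2-fold, among them the cargo receptor Sqstm1 at 578 ± 114 and 607 ± 63.5 CPM. Atg5, which is needed to build autophagosomes, was at 55.9, 67.3, 63.6 and 41.2 CPM on HFD and 106, 121, 90.3 and 124 CPM in lean libraries. These did not overlap, and the interval was -1.49 to -0.45 (edgeR adjusted p = 1, 0.0093 with DESeq2 on the 8 LN libraries, and 0.84 with DESeq2 on well-measured genes alone). MHC class I presentation had 13 bounded genes of 15, among them H2-D1 at 5162 ± 257 and 5347 ± 516 CPM (interval -0.22 to 0.11) and B2m at 2931 ± 205 and 2791 ± 536 CPM. Of 14 well-measured cell cycle genes 7 were bounded, among them Ccnd3, a D-type cyclin, at 346 ± 56.0 and 274 ± 34.4 CPM. Fitted log2 differences of the 14 ran from -0.75 to 1.51. Of 34 tested members, 0 higher and 1 lower on HFD had an unadjusted edgeR p under 0.05, beside 1.38% and 1.99% of all genes tested. Over all 28 program lists together, 686 distinct genes were tested and 418 were well measured. Of the 418, 294 were bounded within 2-fold. In all 36 of the 686 had an unadjusted edgeR p under 0.05, beside 3.37% of all genes tested, and 0 passed after adjustment. The ratio of a list's summed level on HFD to that in lean samples ran from 0.896 for the cholesterol list to 1.15 for the effector list, and no list had sums without overlap.

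**Figure D3:**
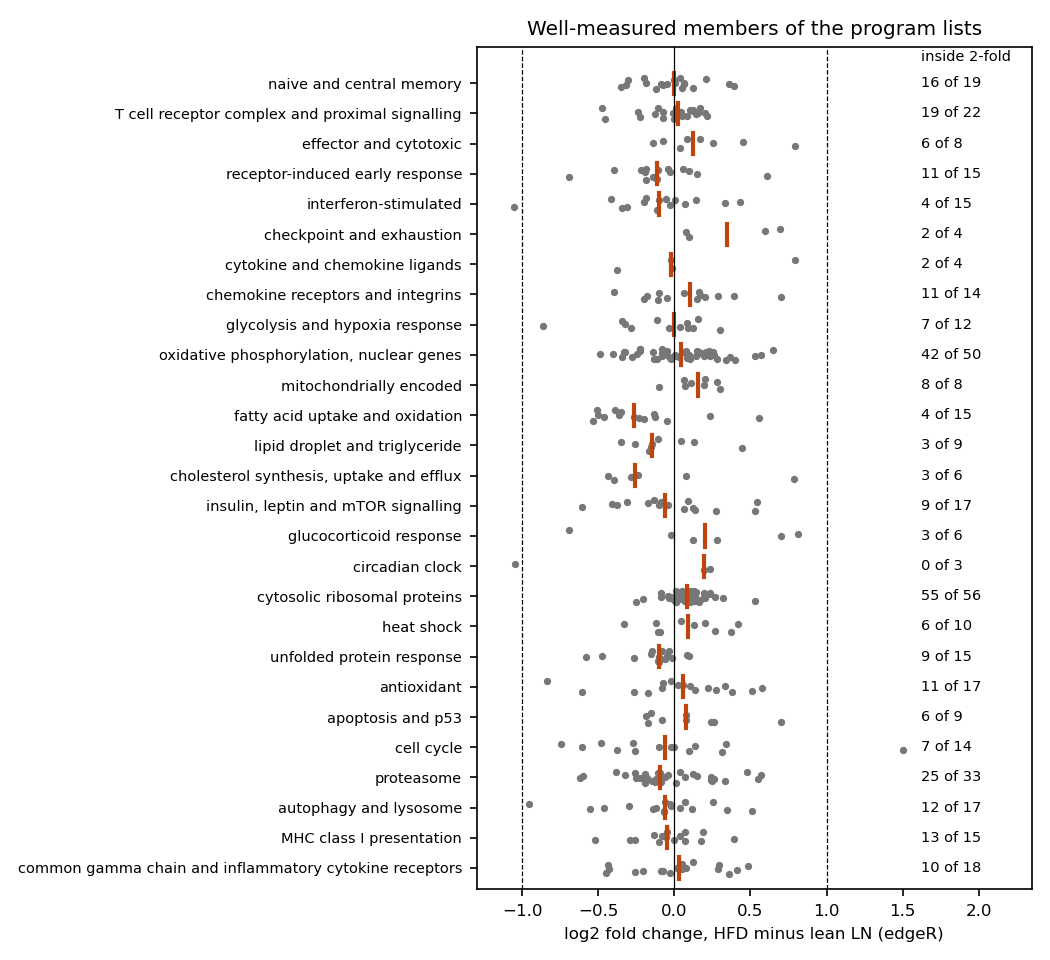
Fitted log2 differences (x, HFD minus lean LN, edgeR) of the well-measured members of each program list with at least 3 such members (y); points are genes, spread vertically at random, orange bars are medians, and dashed lines mark 2-fold. Medians lie between -0.26 for fatty acid and cholesterol genes and 0.34 for the 4 checkpoint genes, and the numbers at the right give how many members were bounded within 2-fold.

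Markers of other cell types were measured in the same libraries. B and plasma cell markers were present in both diets, with summed levels of 2697 ± 537 CPM on HFD (2365 to 3499) and 3125 ± 1202 CPM in lean samples (1826 to 4470). Ighm, the immunoglobulin mu heavy chain, was at 1527 ± 245 and 1532 ± 265 CPM (interval -0.40 to 0.38). Cd79a, a signalling subunit of the B cell receptor, was at 120 ± 49.5 and 114 ± 86.5 CPM. Of 9 well-measured members of the list, 8 had fitted values lower on HFD and 1 higher, with a median log2 difference of -0.35. Over all well-measured genes 50.8% had fitted values above 0. None of the list's members had an unadjusted edgeR p under 0.05, and 1 was bounded within 2-fold. Cd74, the invariant chain of antigen-presenting cells, was at 257, 234, 411 and 559 CPM on HFD and 128, 361, 691 and 807 CPM in lean libraries. Cd79a and Cd74 thus spread widely within each diet and Ighm less so. The part of B cell RNA in the results above was not tested.

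Many, but not all, markers of the other cell types were at or near 0. The macrophage markers Adgre1, Lyz2, C1qa, C1qb, C1qc and Itgam had no count, while Apoe, at 125 ± 46.7 and 108 ± 66.9 CPM, made up nearly all of that list's sum of 126 ± 46.8 and 109 ± 69.2 CPM. The neutrophil list had at most 16 counts for any gene over the 8 libraries and the adipocyte list at most 22. Of dendritic cell markers, Siglech had 0 counts and Cd209a 2, while Itgax had 885, all of them in 1 lean library. That list's summed level (955 ± 340 and 1186 ± 584 CPM) was mostly made of MHC class II genes, Cd74, Bst2 and Ccr9. Ncr1, of natural killer cells, had 0 counts, and the summed level of that list, 1679 ± 219 and 1513 ± 324 CPM, was mostly Il7r. The list for CD4 and regulatory T cells summed to 51.9 ± 16.1 and 48.7 ± 34.3 CPM, mainly Cd40lg. Of its 5 tested members, 1 was higher on HFD at an unadjusted edgeR p under 0.05, beside 1.38% of all genes tested. The smallest edgeR adjusted p in that list was 0.827. Stroma was represented by Gsn, at 35.5 ± 35.4 and 64.8 ± 11.4 CPM, endothelium by Pecam1, which T cells also express, at 159 ± 34.8 and 113 ± 41.8 CPM, and red cells and platelets by sums of 2.34 ± 1.63 and 3.15 ± 1.74 CPM.

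Of the 5 gamma delta T cell genes tested none passed, and 2, Trgc4 and Trgc1, had libraries without overlap, beside 2.26% of all genes tested. Trgc4, a constant segment of the gamma chain, was at 37, 48.6, 74.1 and 42.4 CPM on HFD and 17.5, 11.7, 10.4 and 19.8 CPM in lean libraries. The groups did not overlap, and the log2 difference was 1.77 with an edgeR adjusted p of 0.113 (4.41e-07 with DESeq2 on 16 libraries). Trgc1, another such segment, was at 18.7, 42.5, 55.3 and 14.8 CPM against 12.1, 0.934, 6.64 and 8.89 CPM, again without overlap and with an edgeR adjusted p of 1. Trgc2 did not share the direction of its neighbours, at 9.82 ± 3.66 and 14.1 ± 11.3 CPM. Trdc, the delta chain constant segment, was at 239, 313, 315 and 211 CPM on HFD and 182, 184, 233 and 206 CPM in lean libraries, which overlap (interval -0.01 to 0.81). The list's summed level was 393 ± 112 CPM on HFD (288 to 494) and 255 ± 32.4 CPM in lean samples (223 to 297), overlapping between HFD replicate 4 and lean replicate 3. Some of the gamma segments are near-identical to one another in part, so a read may be assigned to the wrong one. Whether this touches Trgc4 was not tested, nor was the part of gamma delta T cells in other results.

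The well-measured genes nearest to a difference came from varied functions. In all 116 of the 4415 had libraries without overlap between the diets (2.63%), 51 of them higher on HFD (1.16%) and 65 lower (1.47%). Tmem176b, a membrane protein of intracellular vesicles, was at 64.6, 156, 62.4 and 55.7 CPM on HFD and 23.5, 26.6, 43.1 and 11.9 CPM in lean libraries. Its log2 difference was 1.69 (interval 0.55 to 2.82). It had the smallest edgeR p of the 10 well-measured genes higher on HFD that the rule named (0.00184, adjusted 1). Dnase1l1, a relative of DNase I, was at 96.3, 75.6, 75.2 and 76 CPM against 40.3, 44, 36.1 and 45.6 CPM, and Dnajc10, a reductase of the endoplasmic reticulum, was at 127 ± 63.7 and 45.1 ± 14.6 CPM. These 3 genes and Cxcr3 were the 4 well-measured genes that DESeq2 called on 16 libraries (0.0906%), all higher on HFD. The other 6 higher genes named by the rule were the histone deubiquitinase Usp16 (133 ± 9.14 and 74.6 ± 23.6 CPM), the poly(A)-binding Zc3h14 (267 ± 60.6 and 168 ± 28.4), the cytoskeletal Septin6 (240 ± 29.2 and 159 ± 38.7), the mitochondrial carrier Slc25a40 (82.4 ± 22.9 and 32.1 ± 10.0), the chromatin protein Hmgb2 (296 ± 19.2 and 229 ± 21.8) and the endosomal sorting factor Hgs (166 ± 22.9 and 87.7 ± 34.7). Hmgb2 alone of these 10 was bounded within 2-fold, with an interval of 0.11 to 0.62.

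The same rule named 10 genes with lower HFD values. Cct3, a subunit of the cytosolic chaperonin, was at 188, 207, 171 and 150 CPM on HFD and 252, 308, 292 and 292 CPM in lean libraries. Its interval was -1.01 to -0.36, with the smallest edgeR p of these 10 well-measured genes (0.0057, adjusted 1). Tap2, a subunit of the transporter that loads peptides onto MHC class I, was at 273, 286, 277 and 254 CPM against 392, 372, 463 and 340 CPM, with an interval of -0.80 to -0.25. Its partner Tap1 was at 418 and 371 CPM (interval -0.67 to 0.98). The polycomb subunit Eed was at 70 ± 16.7 and 119 ± 5.67 CPM, the mitochondrial protease Spg7 at 85.6 ± 12.9 and 176 ± 39.9 CPM, and the microtubule-associated Map1s at 68.6 ± 16.8 and 162 ± 45.6 CPM. The splicing factors Wbp4 (36.7 ± 18.8 and 89.6 ± 14) and Plrg1 (48 ± 9.99 and 115 ± 34.4), the RNA-processing protein Frg1 (101 ± 27.8 and 168 ± 23.2), the Rap regulator Sipa1l1 (39.8 ± 18.6 and 89 ± 34.7) and the tropomyosin Tpm3 (622 ± 64.3 and 799 ± 75.6) completed the set. Across the 20, DESeq2 on the 8 LN libraries called Dnase1l1, Slc25a40, Cct3, Tap2, Map1s, Spg7 and Plrg1, and edgeR, DESeq2 and limma-trend called none of the 20 when only well-measured genes of the 8 LN libraries were fitted.

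**Figure D4:**
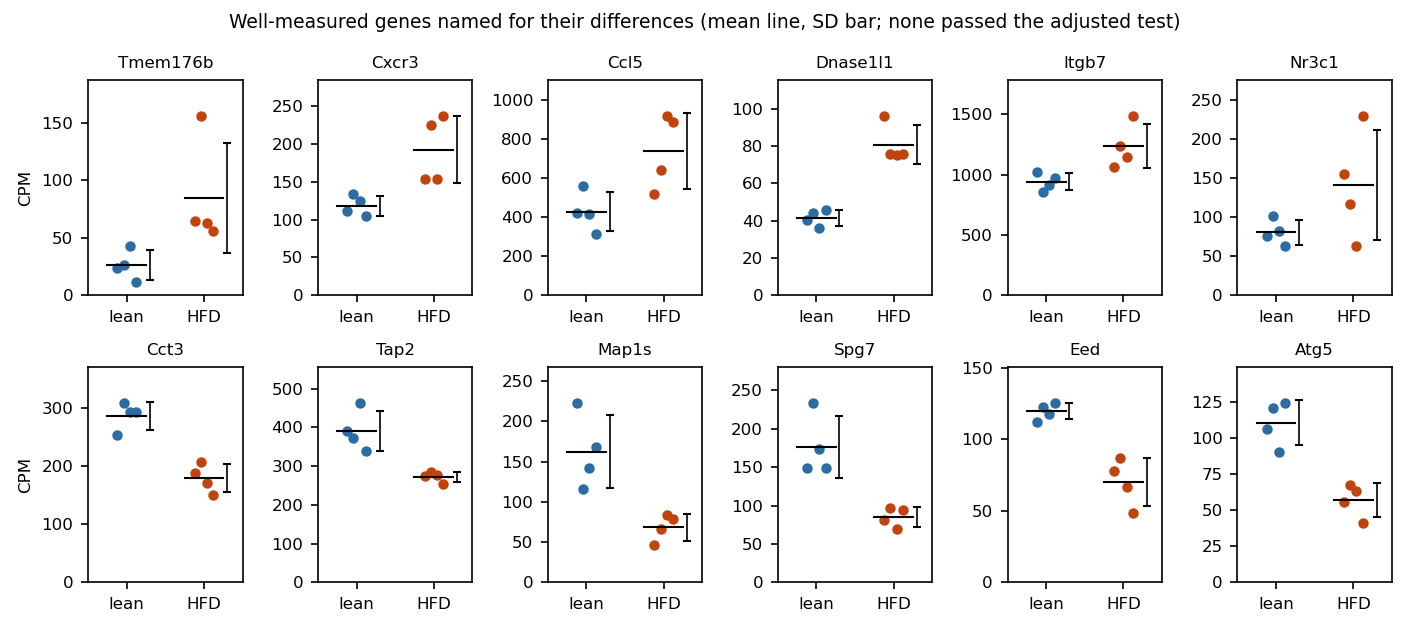
CPM of 12 well-measured genes in each lean (blue) and HFD (orange) LN library, on linear axes from 0, with a line at the mean and a bar of 1 SD. There is no overlap in 10 of the panels, and Ccl5 and Nr3c1 overlap by 1 HFD library each; none of the 12 passed the edgeR test.

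Below 50 CPM, a gene was often near 0 in single libraries of a diet and well above it in others. Of the 11260 tested genes under this level, 2359 (21.0%) had 3 counts or fewer in 1 library and at least 10 CPM in another of the same diet, 1621 (14.4%) of them within HFD and 1403 (12.5%) within lean samples, compared with 40 of 4415 well-measured genes (0.906%). Against that background 3 genes were present in every library of one diet, at 5 CPM or more, and at 3 counts or fewer in every library of the other. Erlin1, an endoplasmic reticulum protein of sterol control, was at 39.2, 16.6, 29.4 and 38.1 CPM on HFD and had 2 counts in all lean libraries together, a ratio of 3561 (counting interval 985 to 29411). Mmp11, a metalloproteinase, was at 27.7, 30.8, 24.8 and 14.3 CPM in lean libraries and had 1 count on HFD, a ratio of 4986 (895 to 196990). Tbc1d31, a centrosomal protein, was at 10.6, 23.6, 12.4 and 15 CPM in lean libraries and had no count on HFD, at least 257-fold lower against 3 counts in each library. None of the 3 passed the edgeR test (adjusted p = 1 for Erlin1 and Tbc1d31, 0.827 for Mmp11), and limma-trend on the 8 LN libraries called all 3 (adjusted p = 0.000451). Because the 3 were selected for a diet group at 3 counts or fewer, these calls are no separate support. The counting intervals cover counting error only, and the reads are not independent molecules.

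Plin2 was the gene nearest to a call. It encodes perilipin 2, which coats lipid droplets, and was at 30.5, 0.805, 18.8 and 21.5 CPM on HFD and 0.131, 0.108, 0.0193 and 0.149 CPM in lean libraries. All HFD values lay above all lean values, though HFD replicate 2 was far below the other 3. The log2 difference was 7.42 with an edgeR adjusted p of 0.113, which became 0.0105 without HFD replicate 2. Its DESeq2 adjusted p was 1.27e-14 on 16 libraries. Stxbp4, a syntaxin-binding protein, was at 6.84, 26.4, 17.9 and 13.1 CPM on HFD and at most 0.216 CPM in lean libraries (edgeR adjusted p = 1, limma-trend adjusted p = 0.0261). Igfbp4 was at 14, 12.3, 15.6 and 10.5 CPM on HFD and 43.3, 77.8, 66 and 33.7 CPM in lean libraries, a log2 difference of -2.07 (edgeR adjusted p = 1, DESeq2 adjusted p = 0.00529). Klrc1, which encodes the inhibitory receptor NKG2A, was at 49.7, 45.6, 48.1 and 71.2 CPM against 7.58, 26.7, 23.7 and 29.8 CPM, a log2 difference of 1.29 (edgeR adjusted p = 1, DESeq2 adjusted p = 0.0349).

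**Figure D5:**
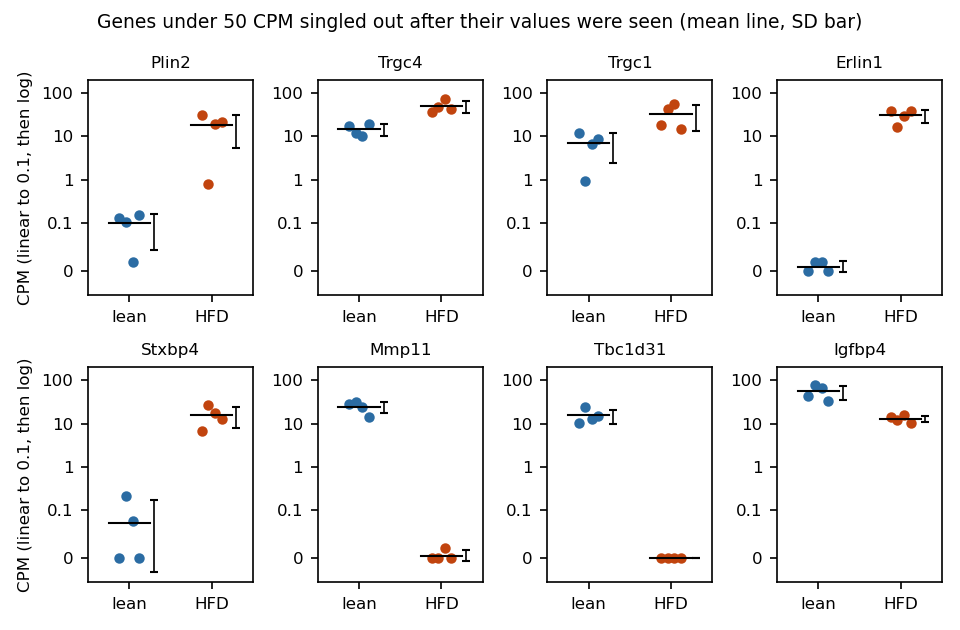
CPM of 8 genes in each lean (blue) and HFD (orange) LN library, on an axis that is linear to 0.1 CPM and logarithmic above, with a line at the mean and a bar of 1 SD. No panel overlaps between the diets; Erlin1 and Tbc1d31 are near or at 0 in one diet, and HFD replicate 2 of Plin2 lies at 0.805 CPM, far under the other HFD libraries.

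In VAT the same edgeR fit called 9 genes between HFD and lean samples, 1 higher (0.00638%) and 8 lower (0.051%), 0.0574% in all, beside 0 in LN. The difference between the diet effects of the 2 tissues was itself tested, and 3 of 15675 genes passed (0.0191%). Of these, 1 was well measured in LN (0.0227% of 4415). Cyb5r1, a cytochrome b5 reductase, was at 80.9, 77.3, 141 and 6.42 CPM in HFD LN and 77.3, 107, 38.4 and 72.5 CPM in lean LN. These overlap, with a log2 difference of 0.05. In VAT it was at 47.1, 22, 60.5 and 29.4 CPM in lean libraries and at or near 0 in all 4 HFD libraries (log2 difference -12.23, edgeR adjusted p = 0.0024). The difference between the effects was 12.28 on the log2 scale (edgeR adjusted p = 0.00878). The call ended without lean LN replicate 1, 2 or 3 (edgeR adjusted p = 0.0687, 0.0518 and 0.055), with replicate numbers as a block (0.104) and with limma voom (0.325), at log2 differences of 10.79 to 12.50. For no other well-measured gene was the diet effect shown to differ between LN and VAT T cells by this test.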

How the data were processed

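RNA of T cells was sequenced in 16 libraries, 4 for each tissue and diet. The table the authors deposited holds whole-number counts that were not normalised (54456 gene rows, 16 columns, all used). The submitters' processing notes name GRCh38, which is human, while the genes carry mouse names, so no coordinates are given; they also name kallisto 0.42.4 and DESeq2. The labels name more than 1 library kit and sequencer and, in part, another cell type, so chemistry and read length are uncertain.

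Levels are CPM on TMM-normalised library sizes. Genes kept by filterByExpr were tested with edgeR 4.0.16 (R 4.3.3; all 4 groups, robust quasi-likelihood fit, common dispersion 1.52, Benjamini-Hochberg threshold 0.05). Intervals (95%) are from limma-trend (limma 3.58.1, prior count 2) on the 8 LN libraries. DESeq2 1.42.0, limma voom, other scalings, filters and bounds, replicate blocks and leaving out each library were alternatives. The scripts were tested on simulated data.

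The comparison, the 39 gene lists and the naming rule were chosen with earlier results of these data known. The rule named 34 panel genes, up to 10 well-measured genes a direction with the smallest edgeR p among those without overlap (3 receptor segments or unnamed models left out), and per list the well-measured members with the smallest p and the highest level; genes called were to be named too, and there were none in LN. It named 105 genes, a few of which are not reported here; 17 listed genes and some examples from the lists were named after their values were seen. Of the 828 listed genes 823 were found by name.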

Additional observations from a re-analysis of the deposited data

Results flagged for a closer look

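Within each group of 4 LN libraries, the library farthest from the rest was checked with Dixon's criterion at the 95% level for the named genes reported here with at least 10 counts in a library of the group. It was exceeded in 18 of 228 groups, and chance alone gives about 1 in 20. None of these values was removed.

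Among genes near 0, 1 library carried nearly all of the signal. Cd4 was at 4.76 CPM in lean replicate 2 and at most 0.0193 in the other lean libraries. Lean replicate 3 alone held Gzmb (6.73 CPM), Ifng (6.87 CPM) and Isg15 (2.98 CPM), each of which had no count in the other lean libraries. Tnf was at 9.04 CPM in HFD replicate 4 and 9.02 CPM in lean replicate 1, with at most 0.022 CPM elsewhere in the 8 libraries. Pdcd1 was at 1.19 CPM in HFD replicate 3 alone among HFD libraries.

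Lean replicate 2 stood apart for 4 further genes: low for Itgae at 182 CPM (300 to 322 in the others), and high for Rpl13 at 2776 CPM (1631 to 1716), Txn2 at 328 CPM (151 to 170) and Gata3 at 77.4 CPM (23.3 to 31.7). HFD replicate 1 was low for Txn2 at 112 CPM (138 to 142) and high for Dnase1l1 at 96.3 CPM (75.2 to 76.0). HFD replicate 2 was high for Tmem176b at 156 CPM (55.7 to 64.6) and Ndufa8 at 76.7 CPM (60.8 to 62.5). Dgat1 was low in HFD replicate 3, at 18.1 CPM (77.6 to 89.0). HFD replicate 4 was high for Klrc1 at 71.2 CPM (45.6 to 49.7). Frg1 was high in lean replicate 3, at 203 CPM (153 to 160).

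The diet effect on Cyb5r1 differed between LN and VAT by 12.28 on the log2 scale (edgeR adjusted p = 0.00878, but 0.0687, 0.0518 and 0.055 without lean LN replicate 1, 2 and 3, and 0.104 with the replicate block); 1 of its 4 HFD LN libraries, replicate 4, lay at 6.42 CPM.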

How the results depend on the processing

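For LN, edgeR called 0 genes with RLE or upper quartile scaling, unfiltered counts, a minimum of 5 CPM in 4 libraries, only the 8 LN libraries, or only the well-measured genes. DESeq2 called 236 genes (4 well measured), limma voom 3 and limma-trend 9; DESeq2 on the 8 LN libraries, added after seeing the data, called 64 (16 well measured). Leaving out 1 library gave 0 to 1 genes, the 1 being Plin2 without HFD replicate 2. Genes bounded within 2-fold (2083) ran from 1735 to 1968 with a library left out, and were 1411 with 16 libraries, 2254 with voom and 586 at the 1.5-fold bound. For the difference between LN and VAT, 3 genes became 1 with upper quartile scaling, 1 without a filter, 1 with the 5 CPM filter, 6 with voom and 635 with DESeq2. With a library left out they ran from 0 to 24: 0 without lean LN replicate 1, 2 or 3, 1 without HFD LN replicate 1 or 4 or lean VAT replicate 2, 3 or 4, 7, 12 and 24 without HFD VAT replicate 1, 2 and 4, and 17 without lean VAT replicate 1. The cause of these changes was not tested. Same-numbered libraries did not vary together (correlations -0.00929 to 0.0642; 2 of 4 HFD libraries correlated best with their own number), and with the replicate number as a block 0 genes passed in LN and 0 for the difference. Of 2518 alternative values for 119 named genes, 33 newly passed (20 genes), 94 changed sign without a call (35 genes) and 0 reversed a call. Depth limits genes near 3 counts, at most 0.0661 CPM.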
